A study of Mus musculus with 16 samples.

Results

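Neurexins and neuroligins are synaptic adhesion genes, and 5 of them were measured here: Nrxn2 and Nrxn3 among the neurexins, and Nlgn1, Nlgn2 and Nlgn3 among the neuroligins. They were chosen by symbol. A transcript of the merged assembly was given to one of them when its largest exonic overlap on the same strand with a GENCODE M21 gene (GRCm38) was with that gene. This rule took 37 of the 137562 assembled transcripts and 5 of the 40405 GENCODE genes with an assembled transcript. Nrxn2 held 13 transcripts, Nrxn3 8, Nlgn1 5, Nlgn2 2 and Nlgn3 9. All 5 genes passed the filter for testing, as did 19356 genes in all.

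The 16 CaptureSeq libraries came from ribosomal RNA-depleted total RNA of adult mice of the strain C57BL/6J, enriched with 2 sets of probes, an lncRNA design and a splice junction design. Among the brain tissues (4) were cerebellum, cortex, olfactory bulb and the whole brain, and among the nonbrain tissues (4) were liver, kidney, heart and one labelled testis. Each tissue had 1 library per design, so the tissue was the unit (n = 4 in each group), and the p-values measure the spread between different tissues and not between mice. Whole brain contains the other brain regions, so the brain tissues overlap. Brain RNA was extracted with TRIzol and that of the other organs with an RNeasy kit, the latter from 2 pieces of an organ of the same mouse. The groups were also hybridized in separate pools and amplified after capture with different numbers of PCR cycles, so tissue group, extraction, pool and PCR cycles cannot be told apart.

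With spike-ins included, a library of the lncRNA design held 8930235 to 21113104 estimated fragments, and one of the splice junction design 14309222 to 43889288. Levels are given below as fragments and as fragments per 1000000 (FPM) of the library without ERCC spike-ins. A count of 0 allowed up to 0.0804 to 0.464 FPM, depending on the library, and covers counting error only. The summed level of 5 neuronal markers was 345 to 826 FPM in brain and 0 to 1.73 FPM in nonbrain libraries of the lncRNA design, and 422 to 742 FPM against 0 to 0.536 FPM in the splice junction design. The tissue labelled testis was the highest of the 8 tissues for none of the 5 germ cell markers and for all 5 keratinocyte markers in both designs, so its label went against its markers and it is called the tissue labelled testis throughout.

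Neurexins sit mainly on the presynaptic membrane and bind neuroligins on the postsynaptic side. Each neurexin gene has an upstream promoter for the long alpha form and an internal promoter for the short beta form, and both forms are spliced at several segments, of which splice segment 4 controls the choice of ligand. Among the neuroligins, Nlgn1 is best known at excitatory synapses, Nlgn2 at inhibitory synapses and Nlgn3 at both. Splice site A of the neuroligins changes their affinity for partners.

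The alternative exons described below are shown first, as read from the spliced GENCODE M21 transcripts, 5′ to 3′ on the strand of the gene. The 90-nt exon of splice segment 4 of Nrxn3 lay at chr12:90199147-90199236 (+) and is printed without capitals.
Nrxn3, splice segment 4: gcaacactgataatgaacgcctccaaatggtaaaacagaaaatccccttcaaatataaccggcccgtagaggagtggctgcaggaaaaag

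The 60-nt exon of splice site A lay at chr3:25920178-25920237 (-) in Nlgn1, and an exon of the same length lay at chrX:101307075-101307134 (+) in Nlgn3. They were identical at 43 of 60 positions (71.7%), and capitals mark the differing bases. Nlgn3 has another 60-nt exon upstream, at chrX:101303072-101303131 (+), with 16 of 60 bases identical to the Nlgn1 exon. The 51-nt exon of Nlgn2 lay at chr11:69830563-69830613 (-). The last 2 are printed without capitals, since they were not aligned to a partner.
Nlgn1, 60 nt: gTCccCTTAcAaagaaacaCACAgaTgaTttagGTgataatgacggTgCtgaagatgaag
Nlgn3, downstream 60 nt: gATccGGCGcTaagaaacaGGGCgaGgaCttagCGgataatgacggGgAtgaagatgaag
Nlgn3, upstream 60 nt: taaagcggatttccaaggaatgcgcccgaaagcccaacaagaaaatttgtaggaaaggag
Nlgn2, 51 nt: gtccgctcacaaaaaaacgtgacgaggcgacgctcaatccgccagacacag

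Of Nrxn2, 4 short exons are shown that passed the rule for naming, which asked for at least 10 estimated fragments on isoforms with and without the exon in a brain library of both designs. All 4 have lengths that are multiples of 3. They lay on chromosome 19 (+) at 6448255-6448284, 6450528-6450599, 6463824-6463847 and 6488784-6488810.
Nrxn2, 30 nt: gtccggctcacctgacgttaaacagcgaag
Nrxn2, 72 nt: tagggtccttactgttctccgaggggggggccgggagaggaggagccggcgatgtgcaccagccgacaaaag
Nrxn2, 24 nt: cacgcagggattggacacgctatg
Nrxn2, 27 nt: actgcctgcgcgtcggctgcgcaccca

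The 5 genes differed in how much of them the assembly held. Of the GENCODE M21 transcripts, the complete intron chain was in the assembly for 13 of 18 in Nrxn2, 6 of 13 in Nrxn3, 1 of 5 in Nlgn1, 1 of 4 in Nlgn2 and 5 of 6 in Nlgn3. The assembly was guided by GENCODE M4, and the paper states that this annotation was included in it. A chain that is present therefore need not come from these reads. The longest intron of any assembled transcript was 299560 nt, and 0 of them had an intron above 300000 nt, against 341 of the 141862 GENCODE M21 transcripts. Such an intron is present in 6 of the 13 Nrxn3 transcripts and in 4 of the 5 Nlgn1 transcripts. In the assembly, Nrxn3 was split into 3 gene models and Nlgn1 into 2, while the other 3 genes had 1 each. The full-length alpha forms of Nrxn3 and the full-length coding forms of Nlgn1 were therefore not among the isoforms measured.

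Nrxn2 was found in all 4 brain tissues at similar levels. The lncRNA design gave 115 fragments in whole brain, 146 in cerebellum, 89 in cortex and 124 in olfactory bulb. It gave 2 fragments in kidney and 0 in heart, liver and the tissue labelled testis. The splice junction design gave 725, 607, 676 and 811 fragments in the same order of brain tissues, 2 in heart, 5 in kidney and 0 in liver and the tissue labelled testis. In both designs every brain library lay above every nonbrain library, as for 13.1% of all genes tested. The mean of the brain tissues was 7.58 ± 1.84 FPM (SD, n = 4) with lncRNA probes and 25.6 ± 5.86 FPM with splice junction probes. The ratio to the pooled nonbrain level was 172 in the lncRNA design, with a 95% exact Poisson interval of 47.6 to 1420 from the 2 nonbrain fragments, and 384 (186 to 955) in the splice junction design.

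Nrxn3 was highest in the olfactory bulb in both designs. The lncRNA design gave 841 fragments in whole brain, 1096 in cerebellum, 3108 in cortex and 10322 in olfactory bulb, and the splice junction design gave 3602, 3912, 4277 and 10854. On the FPM scale this was 66.4 to 182 in the other brain tissues against 583 in the olfactory bulb in the lncRNA design, and 109 to 153 against 458 in the splice junction design. The olfactory bulb exceeded the next tissue, cortex, by 1.63 on the log2 FPM scale after each design's brain mean was removed, and the values of both designs did not overlap between these tissues. Cortex exceeded cerebellum by 0.78 in the same way, while cerebellum and whole brain overlapped.

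Outside the brain, Nrxn3 was highest in kidney, with 45 fragments with lncRNA probes and 13 with splice junction probes. Liver had 12 and 3, heart 2 and 0, and the tissue labelled testis 3 and 0. In the lncRNA design all 62 nonbrain fragments fell on a single 6-exon form that is described below. Kidney held 0.243 FPM and 0.176 FPM of the neuronal markers in the lncRNA and splice junction designs, and 5.17 and 5.12 FPM of 9 peripheral nerve markers. The part of these cells in the kidney level was not tested. The ratio of brain to nonbrain was 165 (95% exact Poisson interval 128 to 215) with lncRNA probes and 1415 (871 to 2476) with splice junction probes.

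Nlgn1 was lowest of the brain tissues in cerebellum. The lncRNA design gave 8383 fragments in whole brain, 5486 in cerebellum, 13404 in cortex and 8252 in olfactory bulb, and the splice junction design gave 2164, 761, 3326 and 3592. Cerebellum lay 1.13 below whole brain, the next tissue, on the centred log2 FPM scale, without overlap, whereas cortex, olfactory bulb and whole brain overlapped with their neighbours. In the nonbrain tissues the lncRNA design gave 0 fragments in heart, 22 in kidney, 1 in liver and 72 in the tissue labelled testis, and the splice junction design gave 0, 2, 0 and 5. The ratio of brain to nonbrain was 270 (221 to 333) with lncRNA probes and 1364 (662 to 3392) with splice junction probes.

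Nlgn2 had the smallest ratio of the 5 genes in both designs. The lncRNA design gave 75, 81, 126 and 92 fragments in the brain tissues, in the order used above, while the splice junction design gave 799, 567, 817 and 559. Cortex was highest and cerebellum lowest in both, and the 4 tissues were ordered alike without overlap, although the gaps were only 0.12 to 0.29 on the centred log2 FPM scale. The nonbrain counts were 2 in heart, 3 in kidney, 2 in liver and 9 in the tissue labelled testis for the lncRNA design, and 8, 8, 4 and 41 for the splice junction design. The tissue labelled testis was thus the highest nonbrain tissue in both designs, by count. It held 4.35 and 12.4 FPM of the 9 peripheral nerve markers in the lncRNA and splice junction designs, beside 1.20 to 5.17 and 1.42 to 19.8 over the nonbrain tissues, and 0.192 and 0.19 FPM of the neuronal markers. The part of these cells in the level was not tested. The brain mean was 16.7 times the nonbrain level (10.3 to 29.2) with lncRNA probes and 42.0 times (32.7 to 54.9) with splice junction probes.

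Nlgn3 depended most on the design. The lncRNA design gave 8973 fragments in whole brain, 5048 in cerebellum, 8728 in cortex and 7977 in olfactory bulb, and the splice junction design gave 575, 397, 445 and 434. Cerebellum was lowest in both designs, by 0.44 on the centred log2 FPM scale and without overlap with cortex, and the other 3 tissues overlapped. In the nonbrain tissues the lncRNA design gave 42 fragments in heart, 31 in kidney, 16 in liver and 35 in the tissue labelled testis, and the splice junction design gave 0, 2, 4 and 11. The ratio of brain to nonbrain was 182 (153 to 219) with lncRNA probes and 96.3 (60.9 to 162) with splice junction probes.

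These splice junction values rest in part on 3 isoforms that also run through exons of Med12 and may be reads of that neighbouring gene. Without them, an alternative chosen after seeing the data, 485.3 fragments stayed in whole brain, 12.6 in cerebellum, 342.8 in cortex and 22.8 in olfactory bulb, and 0 in all 4 nonbrain tissues. The level in brain was then at least 248-fold higher than outside it, computed against a floor of 3 fragments over the nonbrain group. The lncRNA design changed less, with 5032 to 8973 brain fragments and a ratio of 250.5 (204 to 312). Cerebellum was the lowest brain tissue in both designs here too, but in the splice junction design olfactory bulb, at 0.963 FPM, lay nearer to it (0.459 FPM) than to whole brain (14.6 FPM) and cortex (12.3 FPM).

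**Figure D1:**
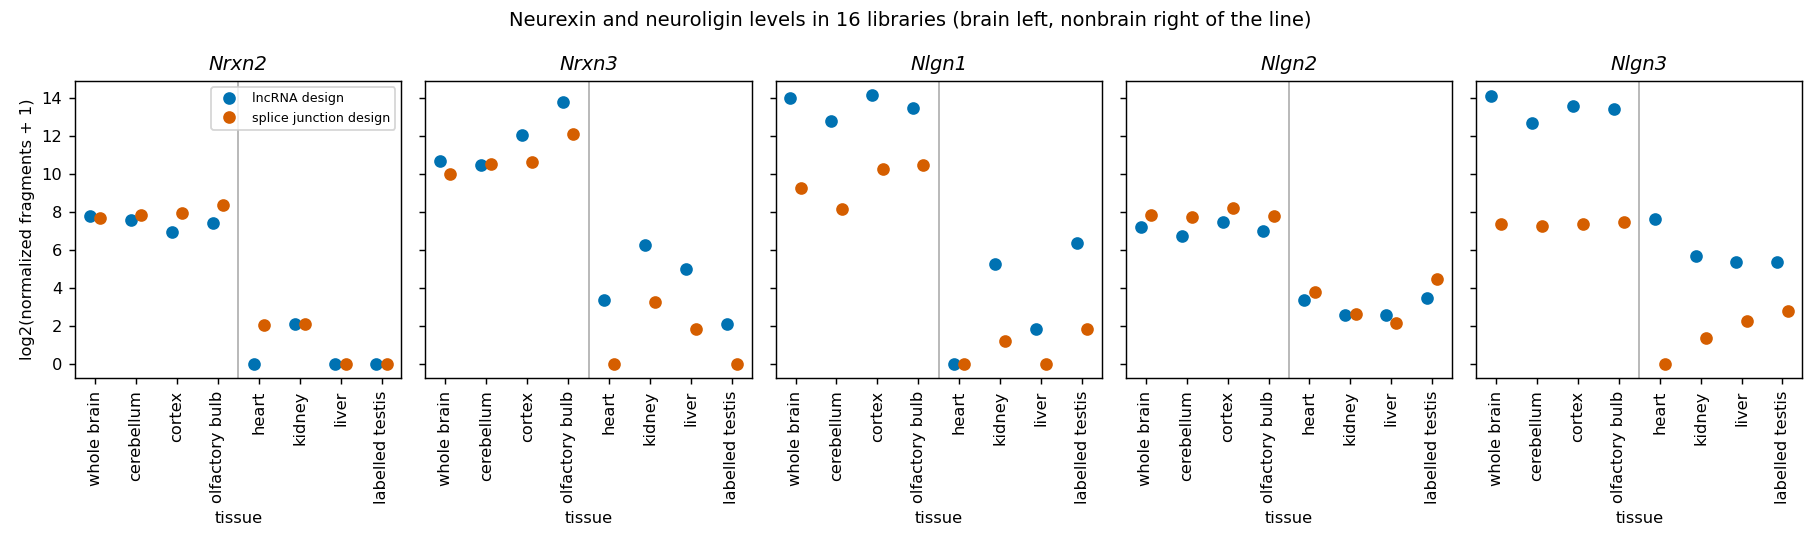
Level of each gene in the 16 libraries, as log2 of the deposited normalized fragments plus 1 on the vertical axis and the 8 tissues on the horizontal axis, with 1 point per library coloured by design. For all 5 genes every brain library lies above every nonbrain library of its design, as for 13.1% of all genes tested, and Nrxn3 rises to its highest level in the olfactory bulb.

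All 5 genes were higher in brain than in nonbrain tissues. The test was limma on log2(normalized fragments + 1), averaged over both designs of a tissue and adjusted over all 19356 genes with the Benjamini-Hochberg method, by which 21.5% of all genes tested were called higher in brain. The difference was 9.52 ± 0.91 for Nlgn1 (log2, SE, limma adjusted p = 0.000123), 8.56 ± 0.90 for Nrxn3 (0.000199), 6.93 ± 0.52 for Nrxn2 (3.2e-05), 6.59 ± 0.33 for Nlgn3 (5.06e-06) and 4.36 ± 0.44 for Nlgn2 (0.000161). The median over all genes tested was 0.17. With FPM as the scale the Nrxn2 difference was 3.81, and with whole gene models assigned to a gene the Nlgn3 difference was 3.65, both still called. Since many nonbrain libraries were at or near 0, these sizes depend on the pseudocount of 1, and the ratios above rest on the fragments themselves. Each gene passed the test within each design too, with differences of 4.08 to 10.26 with lncRNA probes and 4.64 to 9.55 with splice junction probes. In such bulk tissue, fewer cells that express a gene and less RNA per cell cannot be told apart.

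Levels of different genes were compared only per kb of transcript. In the splice junction design the mean level of the brain tissues was 56.1 ± 41.2 FPM per kb for Nrxn3, 30.5 ± 19.4 for Nlgn1, 17.998 ± 8.63 for Nrxn2, 4.38 ± 0.64 for Nlgn2 and 1.80 ± 0.40 for Nlgn3 (SD, n = 4). In the lncRNA design it was 64.0 ± 22.1 FPM per kb for Nlgn3, 61.4 ± 17.5 for Nlgn1, 41.6 ± 43.9 for Nrxn3, 2.04 ± 0.77 for Nrxn2 and 1.06 ± 0.20 for Nlgn2. Nlgn3 was thus the lowest of the 5 genes in the splice junction design, without overlap with Nlgn2. With lncRNA probes it was among the highest, with a spread that overlapped those of Nlgn1 and Nrxn3. How much of each gene the probes cover was not measured, and division by length does not correct for it. These orders are therefore of captured levels and not of expression. The Nrxn2 level of the splice junction design also includes a form of only 648 nt with 134.0 to 402.4 fragments, which weighs heavily per kb.

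The capture designs were compared with limma over the same 8 tissues, with the tissue as a block. The lncRNA design gave higher values for 40.9% of all genes tested and lower ones for 51.7%, and the median difference was -1.09 (log2). Nlgn3 was higher in the lncRNA design by 5.25 ± 0.56 (limma adjusted p = 8.88e-06), in 8 of 8 tissues. Nlgn1 was higher by 3.32 ± 0.53 (adjusted p = 0.000176) and Nrxn3 by 1.93 ± 0.40 (0.00117), each in 7 of 8 tissues. Nlgn2 was lower by this test, with a difference of -0.54 ± 0.21 (limma adjusted p = 0.0307) in 7 of 8 tissues. This call was lost when any of 5 tissues was left out (whole brain, cerebellum, cortex, olfactory bulb or the tissue labelled testis), with adjusted p of 0.0556 to 0.078. Nrxn2 did not pass (-0.52 ± 0.27, adjusted p = 0.0888). All 5 differences lay above the median of all genes under the deposited scaling. With FPM in its place, the Nrxn3 difference was 0.26 (limma adjusted p = 0.416), and the lowest member, at -1.06, lay just under the median of -1.01.

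The brain difference of Nrxn3 was smaller in the lncRNA design than in the splice junction design, with a difference of -1.98 ± 0.48 on the log2 scale (limma adjusted p = 0.0229). Of all genes tested, 4.74% were called smaller in this way. This test was chosen after seeing the data, and the other members gave limma adjusted p of 0.316 to 0.993. It was run on the deposited scale only, and its nonbrain side rests in part on very few fragments. Heart had 2 with lncRNA probes, a deposited value of 9.54, against 0 with splice junction probes, and the tissue labelled testis had 3 against 0.

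The large Nlgn3, Nlgn1 and Nrxn3 levels of the lncRNA design sat on single isoforms. In the isoform values the authors' program divided fragments that fit several isoforms between them, so the counts below are estimates, and they were rounded. For Nlgn3, a 4-exon form of 7749 nt (chrX:101314391-101325964) held 96.3 to 96.9% of the fragments in the 4 brain libraries, namely 8693, 4888, 8407 and 7723. The same form had 2 fragments or fewer in each brain library of the splice junction design.

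For Nlgn1, a 3-exon form (chr3:25421929-25440171) held 74.7 to 86.9% of what lncRNA probes gave in brain, with 7271 in whole brain, 4099 in cerebellum, 11648 in cortex and 7031 in olfactory bulb. Of its 13629 nt, 4380 lay outside the exons that GENCODE gives for Nlgn1. A 2-exon form at the other end of the gene (chr3:26131583-26154076) held a further 15.3% of the fragments over the 4 libraries. The splice junction design read another form instead, with 3 exons at chr3:26131583-26331870, which held 77.6 to 87.9% (1680, 597, 2922 and 2956 fragments). The latter 2 forms share their 3′ end at 26131583, in the 5′ part of Nlgn1, while the 13629-nt form lies at the 3′ end of the gene.

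For Nrxn3, a 6-exon form (chr12:88953390-89352349) held 75.7 to 97.5% of the brain fragments of the lncRNA design, with 636 in whole brain, 961 in cerebellum, 2950 in cortex and 10061 in olfactory bulb. Of its 5618 nt, 3900 lay outside the GENCODE exons of Nrxn3. In the splice junction design this form had 2 to 24 fragments. There, the 13-exon form that begins near it had 993, 553, 2465 and 6571 fragments, in the same order of tissues. The 7-exon form with the beta start had 2563, 3342, 1666 and 4165. Only the forms with the beta start carry the 3′ exons that alpha and beta share. Their fragments can therefore come from alpha or beta transcripts and are not a count of beta.

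The isoforms of Nrxn2 all had the introns of GENCODE transcripts, which the annotation guide can supply without reads. Its 22-exon alpha form (chr19:6418738-6533217) was the highest on average in the splice junction design (408.9, 354.9, 339.4 and 348.5 fragments), and a 5-exon form of 648 nt (chr19:6428646-6472380) was next (179.1, 180.3, 134.0 and 402.4). In that design olfactory bulb was the only brain tissue in which the short form was ahead. In the lncRNA design the 22-exon form had 22.1, 73.8, 14.9 and 85.3 fragments and a 20-exon alpha form (chr19:6418765-6533217) had 58.4, 0, 31.7 and 13, so that the leading form differed between tissues.

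**Figure D2:**
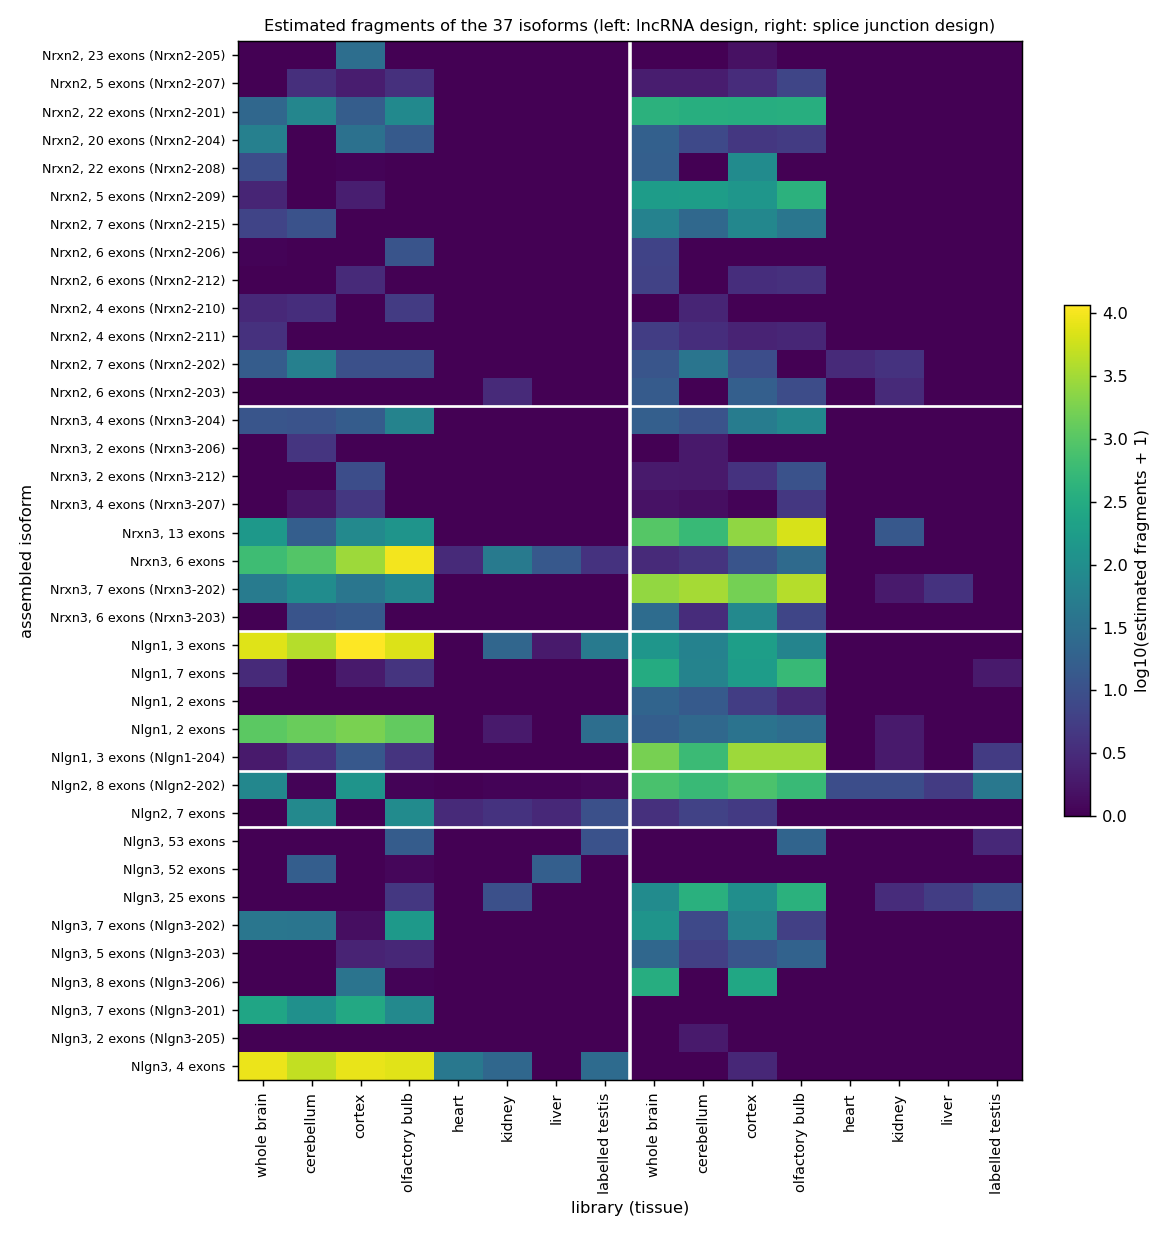
Estimated fragments of each of the 37 isoforms (rows, grouped by gene and ordered by start) in the 16 libraries (columns), as log10 of fragments plus 1 in colour. The forms that are brightest in the lncRNA design, such as the 4-exon form of Nlgn3 and the 6-exon form of Nrxn3, are dim in the splice junction design.

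In the brain tissues 29 of the 37 isoforms had at least 10 estimated fragments in a library of either design. By gene these were 9 of 13 for Nrxn2, 5 of 8 for Nrxn3, 5 of 5 for Nlgn1, 2 of 2 for Nlgn2 and 8 of 9 for Nlgn3. Nrxn2 had the most isoforms in a single library, 7 in whole brain with the splice junction design. In the nonbrain tissues 7 of the 37 reached 10 fragments, and none of them was an Nrxn2 isoform. The 3 in kidney of the lncRNA design belonged to Nrxn3, Nlgn1 and Nlgn3.

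The alpha and beta starts of Nrxn2 were both in the assembly, as they are in GENCODE M21. Alpha forms that reach the exons shared with beta began at 6418731 to 6418765 of chromosome 19, with a further start at 6427937, and beta forms at 6497671 to 6497835. Shorter alpha forms that stop before those exons were left out of the shares. Shares were taken per length over these alpha forms and all 3 beta forms, of which one is a short form of 547 nt that ends at 6509865. Beta forms made up 39.5% of the level in whole brain, 57.5% in cerebellum, 17.99% in cortex and 13.5% in olfactory bulb in the lncRNA design. In the splice junction design the shares were 17.6%, 19.9%, 12.3% and 8.66%. Cerebellum was highest and olfactory bulb lowest in both designs. The mean was 32.1 ± 20.3% with lncRNA probes and 14.6 ± 5.08% with splice junction probes (SD, n = 4). The choice of forms moved these values, in alternatives chosen after seeing the data. Without the short beta form the whole brain share was 22.4% with lncRNA probes, and the splice junction shares were 9.04%, 15.0%, 9.19% and 3.91% (mean 9.28 ± 4.52%). With the shorter alpha forms added, the splice junction shares were 3.45%, 3.88%, 2.62% and 0.752% (mean 2.68 ± 1.38%), and the lncRNA mean was 22.2 ± 13.9%. Cerebellum stayed highest and olfactory bulb lowest in both alternatives. The shares rest on 8.83 to 57.6 beta fragments per library. An interval from counting alone would be too narrow, because the program divided fragments that fit several forms between them.

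For Nrxn3 the beta share could not be read, because the 3′ exons that alpha and beta forms have in common are only on the model with the beta start at 89812483. The 13-exon alpha form ends before them. The ratio of this alpha form to the beta-start model, per kb, was 0.337 in whole brain, 0.146 in cerebellum, 1.23 in cortex and 1.39 in olfactory bulb in the splice junction design. With lncRNA probes it was 2.60, 0.128, 1.32 and 1.54. For this form cerebellum was lowest in both designs, and cortex and olfactory bulb were close to each other. Whole brain was below 1 in one design and above 2 in the other. The lncRNA ratios rest on 145, 15.5, 80.4 and 124 fragments of this form. They leave out the alpha form that held 75.7 to 97.5% of the Nrxn3 brain fragments in that design. With it added, the alpha levels per kb were 148, 175, 544 and 1821, against 13.4, 29.1, 14.7 and 19.4 for the beta-start model. Cerebellum then still had the lowest ratio, but cortex and olfactory bulb were no longer close.

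**Figure D3:**
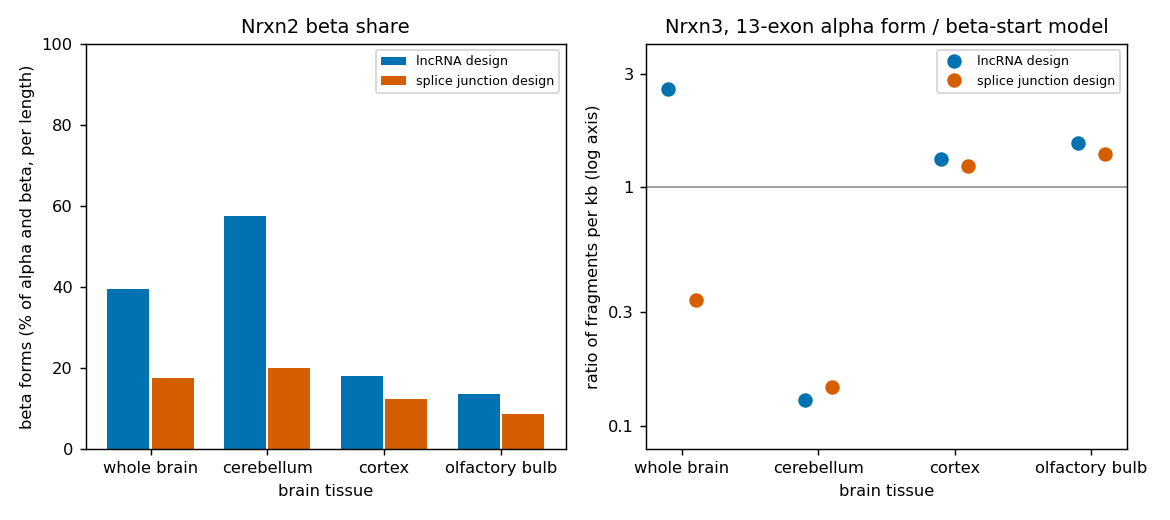
Left: beta forms as a percentage of Nrxn2 alpha and beta forms per length in the 4 brain tissues, 1 bar per library. Right: Nrxn3 fragments per kb of the 13-exon alpha form divided by those of the beta-start model, on a log axis; cerebellum has the highest Nrxn2 share and the lowest Nrxn3 ratio in both designs.

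The start of the 6-exon Nrxn3 form and that of its beta forms were the RefSeq starts to the base, and the sequences around them are shown for this reason. GENCODE M21 transcripts begin at the same bases (88953390 and 89812483). The assembly was guided by GENCODE, which can carry such starts in, so the match says nothing about the reads. Each window runs from 250 bases before to 50 after a RefSeq start (GRCm38.p6), with CG in capitals. The internal alpha window, chr12:88953140-88953439 (+), held 6 CG and the beta window, chr12:89812233-89812532 (+), held 16, where the median of 32851 promoter windows was 7. Of those windows, 56.4% held at least 6 and 33.0% at least 16.
Nrxn3, internal alpha start: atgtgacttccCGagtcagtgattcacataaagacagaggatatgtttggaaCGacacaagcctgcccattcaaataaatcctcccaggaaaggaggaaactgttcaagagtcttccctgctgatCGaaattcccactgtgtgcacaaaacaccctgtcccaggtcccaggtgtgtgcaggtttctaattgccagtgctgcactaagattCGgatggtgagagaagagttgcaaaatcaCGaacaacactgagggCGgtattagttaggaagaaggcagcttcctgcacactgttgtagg
Nrxn3, beta start: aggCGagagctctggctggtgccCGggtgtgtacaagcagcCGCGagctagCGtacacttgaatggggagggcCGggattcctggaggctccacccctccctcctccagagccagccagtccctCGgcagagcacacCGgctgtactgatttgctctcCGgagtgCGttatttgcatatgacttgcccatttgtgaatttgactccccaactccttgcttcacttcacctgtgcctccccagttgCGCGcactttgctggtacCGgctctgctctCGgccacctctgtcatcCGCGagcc

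The 2 RefSeq starts of Nlgn1 lay near the starts of the forms that each design read most in the 5′ part of the gene. The 3-exon form of the splice junction design began 39 bases after the upstream RefSeq start, within chr3:26331860-26332159 (-). The 2-exon form of the lncRNA design began 90 bases before the downstream one, within chr3:26153937-26154236 (-). The start of the 3-exon form, at 26331870, is also that of the GENCODE transcript Nlgn1-204, so the guide can carry it in. The windows around the upstream and downstream RefSeq starts held 14 and 6 CG. TATAAA was absent on both strands from all 4 windows shown, and 13.6% of all windows held it.
Nlgn1, upstream start: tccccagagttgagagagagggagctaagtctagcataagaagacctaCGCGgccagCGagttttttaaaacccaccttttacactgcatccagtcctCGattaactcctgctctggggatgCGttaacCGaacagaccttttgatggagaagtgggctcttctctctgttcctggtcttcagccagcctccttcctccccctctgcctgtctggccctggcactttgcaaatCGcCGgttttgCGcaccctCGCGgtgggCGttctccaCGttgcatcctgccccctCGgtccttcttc
Nlgn1, downstream start: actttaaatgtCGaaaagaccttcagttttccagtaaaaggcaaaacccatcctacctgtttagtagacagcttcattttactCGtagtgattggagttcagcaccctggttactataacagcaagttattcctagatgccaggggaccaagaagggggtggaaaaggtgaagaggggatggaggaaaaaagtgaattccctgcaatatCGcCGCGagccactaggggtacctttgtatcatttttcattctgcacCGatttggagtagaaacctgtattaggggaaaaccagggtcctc

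With splice junction probes the 90-nt exon of splice segment 4 was included in over 90% of the level of the 2 beta-start isoforms of Nrxn3 that span it, in each brain tissue. The assembled 13-exon alpha form, with 46.7% of the Nrxn3 brain fragments in that design, does not reach this exon and does not count here. Full-length alpha transcripts contain the exon but were not assembled. Their fragments over it can only fall on the same 2 isoforms, so this inclusion is not that of beta transcripts alone. Inclusion per length was 98.9% in whole brain, 99.9% in cerebellum, 94.8% in cortex and 99.8% in olfactory bulb, with 1666 to 4165 estimated fragments on the including form and 2.3 to 81.5 on the skipping form. In the lncRNA design the range was 72.4 to 100%. Cortex was lowest in both designs. The skipping form also differs in the start of its last exon, so its share is not that of the 90-nt exon alone.

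Inclusion of the 4 exons of Nrxn2 shown above was compared between the designs. The exons share isoforms, so their values are not independent. In the lncRNA design all fragments skipping the 27-nt exon lay on the 20-exon alpha form, which also skips the 72-nt exon. In the splice junction design the 648-nt form held 179.1 of the 185.8 fragments skipping the 30-nt exon in whole brain and 402.4 of 408.4 in olfactory bulb. The 30-nt exon was included at 14.3 to 43.9% in the splice junction design and 55.3 to 97.5% in the lncRNA design, and the 24-nt exon at 6.48 to 26.1% and 48.7 to 72.1%, so that neither pair of ranges overlapped per length. Without division by length the 30-nt ranges were 48.9 to 79.0% and 88.5 to 98.2%, still apart, but the 24-nt ranges were 5.32 to 14.9% and 11.6 to 79.6% and overlapped. Olfactory bulb was lowest for the 30-nt exon in both designs. The 72-nt exon was included at 99.2 to 99.7% in the splice junction design and 45.7 to 95.6% in the lncRNA design. The 27-nt exon was at 96.4 to 99.2% and 35.4 to 100%, so its ranges overlapped. A 101-nt exon of Nrxn3, at chr12:88954811-88954911, is in the 13-exon form and not in the 6-exon form. It was included at 99.6 to 99.8% in the splice junction design and at 1.65 to 23.5% in the lncRNA design.

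Among the neuroligins only the upstream 60-nt exon of Nlgn3 passed the naming rule. It was included at 62.8% in whole brain, 89.8% in cerebellum, 73.7% in cortex and 75.8% in olfactory bulb in the splice junction design, and at 0 to 10.7% in the lncRNA design. The cerebellum and olfactory bulb values rested on the isoforms that also run through exons of Med12, the neighbouring gene upstream, which encodes a subunit of the Mediator complex. Those isoforms held 384 of the 397 Nlgn3 fragments in cerebellum (96.8%) and 411 of 434 in olfactory bulb (94.7%), but 90 of 575 in whole brain and 103 of 445 in cortex. Without them the inclusion was 58.9% in whole brain and 69.0% in cortex, and 0% in cerebellum and olfactory bulb, where 11.6 and 22.8 fragments remained. Outside the brain, the same isoforms held all Nlgn3 fragments of kidney, liver and the tissue labelled testis in the splice junction design and all 16 of liver in the lncRNA design, but none of the 42 of heart. Fragments on these isoforms may come from either gene. The brain difference of Nlgn3 stayed called without them.

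The 51-nt exon of Nlgn2 did not pass the naming rule and was chosen after its values were seen, because it is the only difference between the 2 Nlgn2 isoforms. It was included at 99.1 to 100% in the splice junction design. In the lncRNA design it was at 99.95% in whole brain, 0.14% in cerebellum, 99.99% in cortex and 0.1% in olfactory bulb, at totals of 75 to 126 fragments. The values of cerebellum and olfactory bulb were thus opposite in the 2 designs, for forms of 5568 and 5517 nt that share almost all of their sequence. For the 60-nt exon of Nlgn1 no isoform that skips it was assembled.

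**Figure D4:**
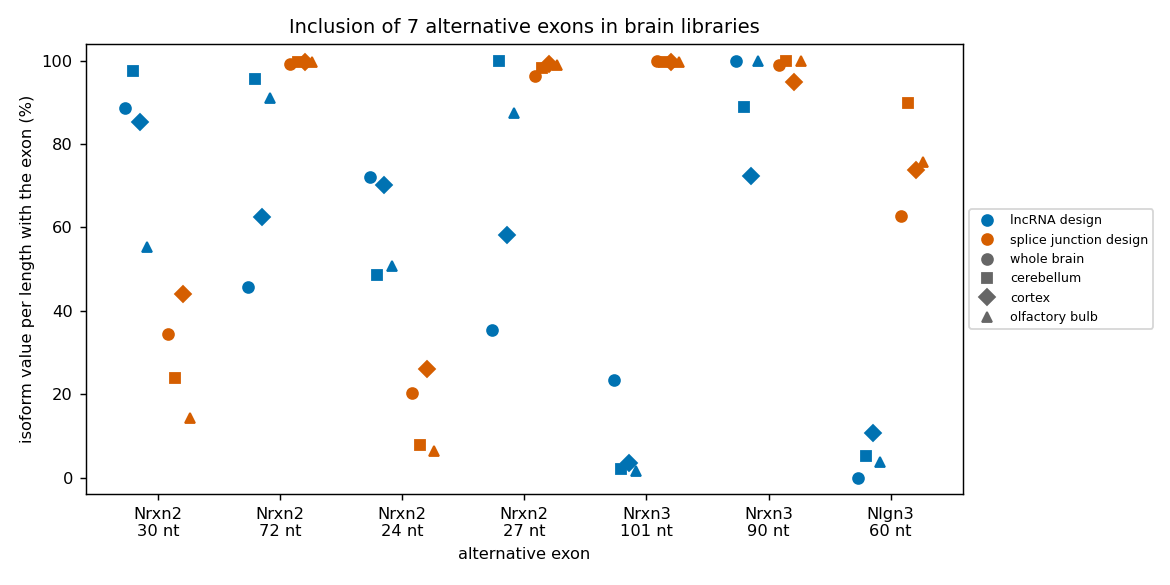
Inclusion of 7 alternative exons that passed the naming rule, as the percentage of isoform value per length that includes the exon, in each of the 4 brain tissues (symbols) and both designs (colours). The 90-nt exon of Nrxn3 is above 90% in every splice junction library, and the 101-nt exon of Nrxn3 and the 60-nt exon of Nlgn3 are far apart between the designs.

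Genes that bind, anchor, splice or cleave neurexins and neuroligins were counted in the same comparison of brain with nonbrain tissues. Of 55 listed genes 49 were tested, and 38 were higher in brain, 1 was lower and 10 did not pass, where 21.5% of all genes tested were higher and 11.6% lower. The median difference was 4.46 (log2), beside 0.17 over all genes tested. The lists were chosen with earlier results of these data known, so the counts describe the lists and are not independent support.

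Of the other ligands of neurexins, 17 were listed and 12 tested, of which 11 were higher in brain. Cbln1, Cbln2, Cbln4, Lrrtm1 and Nxph1 had a nonbrain mean of 0, so they passed the filter for testing through brain alone. The largest difference was that of Lrrtm4, a leucine-rich repeat protein of the postsynaptic membrane, at 9.27 ± 0.76 (limma adjusted p = 5.25e-05), and the smallest that of Dag1, dystroglycan, at -1.48 ± 0.53 (0.0606). Of the neuroligin binders and postsynaptic scaffold genes, 13 of 16 were higher, from Dlgap1, a scaffold protein of the postsynaptic density, at 8.59 ± 0.69 (limma adjusted p = 4.81e-05) down to Gphn, the gephyrin of inhibitory synapses, at 0.88 ± 0.36 (0.0931). Gephyrin also acts in molybdenum cofactor synthesis outside the nervous system.

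Of the 7 presynaptic scaffold genes 6 were higher, led by Apba2 (Mint2) at 6.74 ± 0.53 (limma adjusted p = 4.31e-05), and Lin7c was at 0.10 ± 0.41 (0.867). Of the 10 splicing regulators tested, 6 were higher and 1 lower. Rbfox3, the neuronal splicing factor NeuN that is also among the neuronal markers, differed by 8.88 ± 0.53 (limma adjusted p = 1.12e-05). Ptbp1, the polypyrimidine tract binding protein that represses neuronal exons, was lower in brain, with a difference of -1.80 ± 0.42 (limma adjusted p = 0.0125). Of the 4 proteases, 2 were higher, with Mmp24 at 6.97 ± 0.62 (limma adjusted p = 8.18e-05) and Mmp9 at -0.73 ± 0.77 (0.488) at the ends of the list.

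**Figure D5:**
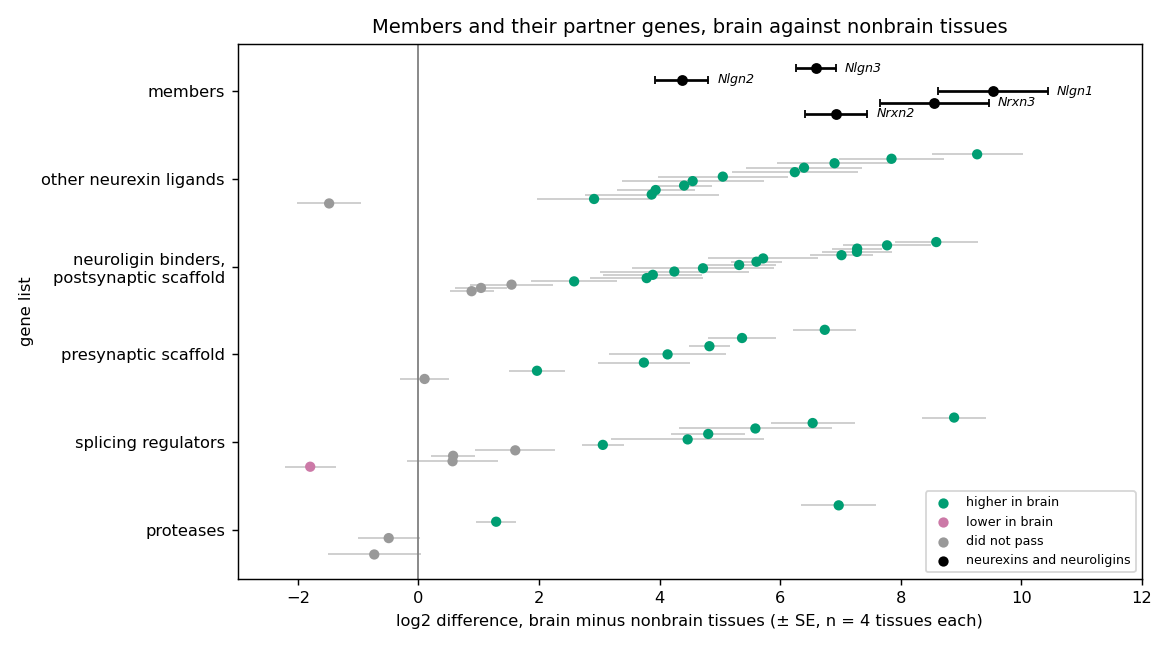
Log2 difference between brain and nonbrain tissues (horizontal axis, limma, bars are SE, n = 4 tissues in each group) of the 5 genes and of the 49 tested genes of 5 partner lists (rows). All 5 genes lie between 4.36 and 9.52, and Ptbp1 is the single listed gene that was lower in brain.

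The genes nearest to each member in profile were found over the 16 libraries, after each design's mean was removed, by the root mean square difference of log2(normalized fragments + 1) among 19356 genes. This is a description. For Nrxn3 the nearest was Gad1, which makes the transmitter GABA, at 1.01, followed by Myo16 at 1.24 and Dscaml1 at 1.26. For Nlgn1 they were Map2, a microtubule protein of dendrites, at 0.94, Usp29 at 1.04 and Gabrb1, a subunit of the GABA-A receptor, at 1.15. For Nrxn2 they were Dzank1 (0.48), Negr1 (0.61) and Zcchc18 (0.64), for Nlgn2 Ric3 (0.44), D330050G23Rik (0.49) and Rsph10b (0.53), and for Nlgn3 Gm26512 (0.69), Cdk5r1 (0.70) and Xkr4 (0.72). No member was among the 3 nearest genes of another member. The closest pair of members was Nrxn2 and Nlgn3, at 1.36.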

How the data were processed

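CaptureSeq libraries of 8 mouse tissues, each with both probe designs, were analysed. Reads were aligned by the authors with TopHat2 (GRCm38). Cufflinks (2.2.1) built transcripts on a GENCODE M4 guide, these were merged, and the authors deposited a Cuffnorm (2.2.1) value for each transcript and library, a signal of normalized fragments that is not a whole count. Sums over gene models were whole multiples of a step of the library, so estimated fragments were recovered as value divided by step. Transcripts were assigned to GENCODE M21 genes, whose release differs from the authors'. Members and gene lists were chosen with earlier results of these data known.

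Genes with a mean value of at least 10 were tested with limma (3.58.1, R 4.3.3) on log2(value + 1), two-sided, with Benjamini-Hochberg adjustment at 0.05. Exact Poisson intervals cover counting error only. Named were all members, the ends of each partner list, the 3 nearest profiles, the 2 highest isoforms per gene and design, and alternative exons of at most 300 nt. Exon inclusion and beta shares used isoform values divided by length. The model was tested on simulated data. Sequences came from GENCODE M21 transcripts and RefSeq promoter windows; Nrxn2 and Nlgn3 had no window in the table used. Python 3.11.15, NumPy 2.4.6, pandas 2.3.3, SciPy 1.17.1 and matplotlib 3.10.9 were used. There was 1 library per tissue and design. One further exon result is not reported here.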

Additional observations from a re-analysis of the deposited data

Results flagged for a closer look

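Dixon's test at the 95% level was run in 40 groups of 4 tissues, and 3 groups had a library far from the others. The chance rate of about 1 group in 20 holds for replicates of a normal population, and different tissues are not such replicates. Nrxn3 in the splice junction design was at 458 FPM in olfactory bulb, against 109 to 153 in the other brain tissues, and it was highest there in the lncRNA design as well. Nrxn2 in the lncRNA design was at 0.162 FPM in kidney, which is 2 fragments, and at 0 in the other nonbrain tissues. With the others all at 0 any count is flagged, so this flag carries no information. The 101-nt exon of Nrxn3 was at 23.5% in whole brain in the lncRNA design, against 1.65 to 3.56% in the other brain tissues.

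The Nrxn3 difference between brain and nonbrain tissues depended on the design. With lncRNA probes it was 7.57 ± 1.07 (log2, SE) and with splice junction probes 9.55 ± 0.85, and a test of this difference, chosen after seeing the data (limma on each tissue's difference between designs, 4 against 4 tissues), gave -1.98 ± 0.48 with an adjusted p of 0.0229. Of all genes tested 4.74% were called in this direction. In the splice junction design 0 fragments were counted in heart and in the tissue labelled testis, where the lncRNA design had 2 and 3. The difference thus rests in part on values near the floor.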

How the results depend on the processing

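No paired analysis was possible because each tissue and design had a single library with the same replicate number; the tissue block of the capture comparison pairs the 2 designs of a tissue. All 5 genes were called higher in brain under all 20 alternatives, including each tissue left out in turn (5 to 5 genes), and the differences ranged from 3.81 to 7.62 for Nrxn2, 6.79 to 9.55 for Nrxn3, 7.11 to 10.26 for Nlgn1, 3.19 to 4.64 for Nlgn2 and 3.65 to 7.42 for Nlgn3. The lowest values came with FPM for Nrxn2 and with whole gene models for Nlgn3 (6.59 as reported). The partner genes called higher numbered 31 to 37 with a tissue left out, 33 with the lncRNA design alone and 39 with the splice junction design alone. The calls over all genes (4161) were 3213 to 4303 with a tissue left out and 7029 with gene models without a GENCODE gene added, which raises the number of models tested.

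In the comparison of designs, 4 of the 5 genes passed, 3 to 4 with a tissue left out, and 1 without the tissue block. With FPM the Nrxn2 difference passed at -0.85 (adjusted p = 0.0257), and with quantile normalization the Nlgn2 difference was -0.05 (adjusted p = 0.793). The median over all genes moved from -1.09 to -1.01 with FPM and to -0.61 with quantile normalization, and in the brain comparison from 0.17 to 0.38 and -0.17. The cause was not tested.

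The mean beta share of Nrxn2 was 23.4% over both designs, 12.9% without division by length, 25.7% with an effective length that assumes fragments of 200 nt, 18.6% without the short beta form and 12.4% with the partial alpha forms added. The last 2 were chosen after seeing the data, as was leaving out the isoforms that join Med12 and Nlgn3. Mean inclusion of the 30-nt exon of Nrxn2 was 55.4% and 81.2% without division by length. The 37 isoforms gave 29 detected, 37 at 1 fragment, 22 at 50 fragments and 13 at 8-fold coverage. The Nrxn2 and Nlgn2 shares of the lncRNA design rest on totals of 75 to 146 fragments per brain library.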
